A study of Arabidopsis thaliana with 9 samples.

Results

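APG8A, ATG8E and ATG3 are genes of autophagy, the process by which a cell encloses part of its cytoplasm in a double membrane and delivers it to the vacuole for breakdown. ATG8 proteins are small and resemble ubiquitin. A protease of the ATG4 type trims them, ATG7 activates them, and ATG3, an enzyme of the E2 kind, joins them to the lipid phosphatidylethanolamine, so that they sit in the growing membrane and bind cargo receptors. In plants this recycling supplies carbon and nitrogen in darkness and starvation, and Arabidopsis mutants that lack it senesce early when light is withheld. APG8A is the older symbol of ATG8A (AT4G21980). ATG8E (AT2G45170) is a second gene of the ATG8 family, which has 9 members in Arabidopsis, and ATG3 (AT5G61500) is a single gene.

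The 3 genes were chosen by their annotated symbols, with earlier results of these same arrays in view, among them the differences between genotypes. Their own levels and differences are therefore a description, with no test. Each gene had 1 probe set, so the group is 3 of the 13286 loci with a named probe set, and 3 of the 22746 probe sets tested. Of a list of 50 Arabidopsis autophagy loci, 21 had a named probe set, and the 18 besides these 3 genes were tested across the whole array.

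RNA came from whole Arabidopsis thaliana seedlings of ecotype Columbia-0, grown in darkness for 108 h on medium with 1% sucrose. Each of 3 genotypes had 3 single-colour Affymetrix arrays. Col is the wild type. Seedlings labelled bri1-116 are homozygous for a null allele of BRI1, the cell-surface receptor of brassinosteroids, and they were picked one at a time from a segregating population after freezing. AtGATA2ox is a transgenic Columbia line with raised expression of AtGATA2, which encodes a transcription factor of the GATA family. The sources used here do not give the promoter of that transgene or say how many independent lines were made. The labels name no separate cultures, so the errors cover only the spread between these arrays. They name no hybridisation batch either. In the archive the Col and bri1-116 arrays are numbered in a single run, and the AtGATA2ox arrays in a separate, later run. Whether AtGATA2ox was hybridised apart is not given, so batch and genotype cannot be told apart. Neither BRI1 nor AtGATA2 was analysed here, as no probe set was named for them. The comparison of the 2 altered genotypes was made to look for genes through which light and brassinosteroid control of development meet.

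Intensities are linear array units as deposited, and a log2 difference is taken on log2(intensity + 1). Col arrays had median intensities of 134.5 to 147.3, those of bri1-116 119.6 to 132.6 and those of AtGATA2ox 104.3 to 123. The actin control read from its 3′ end over its 5′ end, a measure of shortened RNA or cDNA, gave ratios of 1.81 to 2.03, 2.86 to 4.88 and 3.66 to 5.45 in the same order. A second pair of actin control probe sets gave higher ratios, of 9.29 to 15.69, 14.53 to 33.37 and 24.74 to 44.99. By that pair the bri1-116 arrays overlapped both those of Col and those of AtGATA2ox. The spiked hybridisation controls had mean log2 intensities of 10.04 to 10.21, 10.39 to 10.72 and 10.9 to 11.31. These measures moved with genotype, and their part in the values below was not tested. In whole seedlings, fewer cells of a type and less RNA per cell cannot be told apart. Of the organ markers listed, the root genes EXPA7 and EXPA18 and the stomatal lineage gene SPCH were measured, and SPCH read 4.8 to 18.9 over all arrays, within the range of the Bacillus controls, which have no target in plants and reached 37.6 to 84.1 on an array. EXPA18 fell in AtGATA2ox (log2 difference -2.59, limma adjusted p = 0.02), with 67.6 to 102.9 in Col and 3.7 to 29.6 in AtGATA2ox, levels near those controls. That call was lost without Col replicate 1 (adjusted p = 0.053), Col replicate 2 (0.08) or AtGATA2ox replicate 2 (0.054). EXPA7 was not called, and the part of root tissue in the results was not tested.

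ATG8E, which encodes one of the ubiquitin-like proteins, read 3004, 2926.1 and 3562.7 on Col replicates 1, 2 and 3. It read 2387.6, 2336.1 and 3539 on the bri1-116 arrays and 4671, 5995.8 and 7535.3 on the AtGATA2ox arrays. All 3 AtGATA2ox arrays were above all 6 other arrays, while bri1-116 replicate 3 lay inside the Col range and replicates 1 and 2 below it. Its mean was 6067 ± 1433 (SD, n = 3) in AtGATA2ox, 3164 ± 347 in Col and 2754 ± 680 in bri1-116. The log2 difference from Col was 0.92 ± 0.2 (SE) in AtGATA2ox, or 1.89-fold higher, and -0.22 ± 0.2 in bri1-116. Against bri1-116, AtGATA2ox was 2.2-fold higher (1.14 ± 0.2).

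APG8A, the other ATG8 gene of the 3, read 3830.9, 4359.1 and 3810.1 in Col. The bri1-116 arrays read 2637.4, 2889.9 and 3112.1, and the AtGATA2ox arrays 3931.6, 4092.8 and 4873. The bri1-116 arrays lay below all 6 others, and those of AtGATA2ox and Col overlapped. The bri1-116 mean was 2880 ± 238, that of Col 4000 ± 311 and that of AtGATA2ox 4299 ± 503 (SD, n = 3). The log2 difference from Col was -0.47 ± 0.14 in bri1-116, or 1.39-fold lower, and 0.1 ± 0.14 in AtGATA2ox. AtGATA2ox stood 1.49-fold above bri1-116 (0.57 ± 0.14).

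ATG3, the gene of the conjugating enzyme, was lowest in AtGATA2ox, where ATG8E was highest. It read 1183.2, 1208.6 and 1030.8 in Col, 804.1, 1005.4 and 816.9 in bri1-116, and 388.9, 780.4 and 434.2 in AtGATA2ox. The 3 groups did not overlap, although AtGATA2ox replicate 2 (780.4) came close to the lowest bri1-116 array (804.1). Means were 1141 ± 96.2, 875 ± 113 and 534.5 ± 214 in Col, bri1-116 and AtGATA2ox (SD, n = 3). The log2 difference from Col was -1.16 ± 0.23 in AtGATA2ox, or 2.23-fold lower, and -0.39 ± 0.23 in bri1-116, or 1.31-fold lower. Without AtGATA2ox replicate 2, the highest of its group, the difference from Col was -1.47, and without replicate 1, the lowest, it was -0.97. Replicate 2 also had the lowest ratio of its group by the first actin pair (3.66, against 5.45 and 5.28). By the second pair replicate 3 was lowest (24.74, against 29.51 for replicate 2). The part of shortened RNA or cDNA in the level of ATG3 was not tested. Between the altered genotypes the difference was -0.77 ± 0.23.

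**Figure D1:**
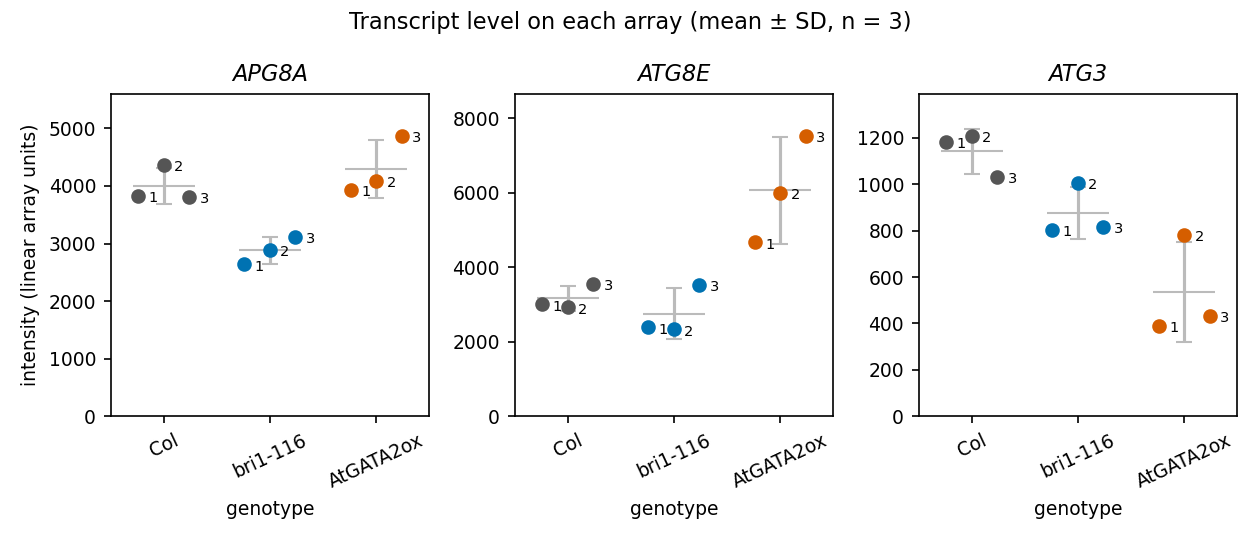
Intensity (linear array units, from 0) of APG8A, ATG8E and ATG3 on each of the 9 arrays by genotype, with the replicate number beside each point and the mean ± SD (n = 3) in grey. The ATG8E points of AtGATA2ox lie above all others, the APG8A points of bri1-116 lie below all others, and the ATG3 points fall from Col through bri1-116 to AtGATA2ox on the deposited scale, where the scaling to hybridisation controls removes the ATG8E rise (log2 difference -0.13).

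In order of level, ATG8E was highest in AtGATA2ox, then Col and bri1-116, whose arrays overlapped. APG8A was highest in AtGATA2ox and Col, which overlapped, and lowest in bri1-116. ATG3 was highest in Col, then bri1-116, then AtGATA2ox. The scatter between arrays of a genotype also differed, with a coefficient of variation of 7.8% to 11% in Col for the 3 genes and of 11.7% for APG8A, 23.6% for ATG8E and 40.1% for ATG3 in AtGATA2ox. The arrays that set these spreads were not the same, since replicate 3 was the highest AtGATA2ox array for both ATG8 genes and replicate 2 for ATG3. ATG8E was also highest on replicate 3, and ATG3 on replicate 2, in Col and in bri1-116. APG8A was highest on replicate 2 in Col and on replicate 3 in bri1-116. With the replicate number as a block, the SE of the difference from Col was 0.15 for ATG8E, against 0.2 without it. It was 0.19 for ATG3, against 0.23, and stayed at 0.14 for APG8A. Whether same-numbered arrays were handled together was not tested.

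The arrays had been scaled to 1 common mean each, so the differences depend on that choice, and 3 other scalings were set beside it. Quantile normalisation, centring on the median and scaling to the hybridisation controls moved the median log2 difference of all probe sets between AtGATA2ox and Col, -0.17, by 0.18, 0.34 and -1.05. Of all probe sets called in that comparison 34.1% were higher, and 47.2%, 58.1% and 3.4% under the 3 scalings. Scaled to the hybridisation controls, ATG8E was at -0.13 in AtGATA2ox against Col, and APG8A at -0.95. APG8A was also below 0 with quantile normalisation (-0.13), and at 0.44 with centring on the median. The direction of ATG8E and of APG8A in AtGATA2ox is thus relative to the scaling, while ATG3 was lower under each of the 4 (-0.93 with quantile normalisation, -0.82 with centring and -2.21 with the hybridisation controls). In bri1-116 all 3 genes were below Col under each of the 4 scalings, at -0.09 to -0.7 for ATG8E, -0.34 to -0.95 for APG8A and -0.25 to -0.86 for ATG3. With centring the SE was 0.25 for ATG8E and for ATG3, no smaller than their differences. The bri1-116 and Col arrays of ATG8E overlapped as deposited, and the 4 scalings use the same arrays.

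**Figure D2:**
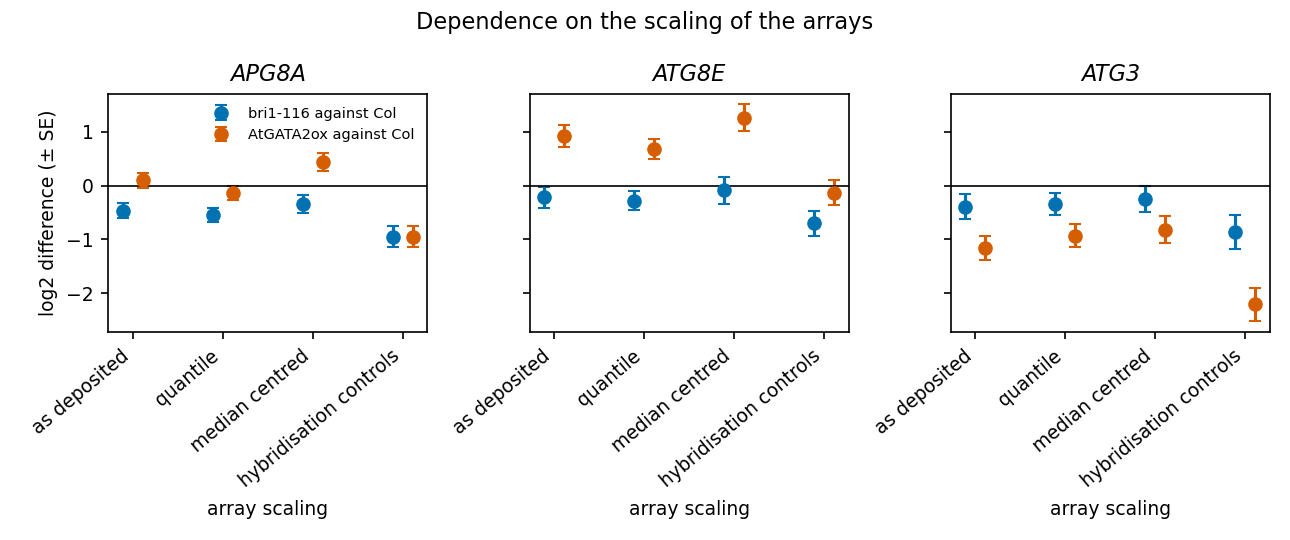
Log2 difference from Col (± SE of the fit, n = 3 arrays per genotype) of APG8A, ATG8E and ATG3 in bri1-116 and AtGATA2ox under 4 scalings of the arrays. ATG3 of AtGATA2ox stays below 0 throughout, while ATG8E of AtGATA2ox goes from 0.92 as deposited to -0.13 with the hybridisation controls and APG8A from 0.1 to -0.95.

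A ratio of 2 probe sets on the same array is not moved by any single scaling factor, and shows only that the 2 signals changed unequally. It does not remove an effect that differs between probe sets, and the part of shortened RNA or cDNA was not tested. The ratios were added after the values were seen. Relative to the Col mean, the log2 ratio of ATG8E over ATG3 was 2.11, 1.47 and 2.65 on the AtGATA2ox arrays, against -0.19 to 0.32 on the Col arrays and -0.25 to 0.64 on the bri1-116 arrays. The AtGATA2ox arrays stood apart from the other 6, with a mean of 2.08 ± 0.59 (SD, n = 3). ATG8E over APG8A was 0.59, 0.89 and 0.97 in AtGATA2ox, above the Col arrays (-0.23 to 0.24) and the bri1-116 arrays (0.03 to 0.53). APG8A over ATG3 was 0.58 to 1.68 in AtGATA2ox, and its bri1-116 arrays (-0.29 to 0.12) overlapped those of Col (-0.12 to 0.08). For ATG8E over ATG3 as well, the bri1-116 arrays overlapped those of Col.

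The remaining 7 genes of the ATG8 family were all measured. The list of the family was chosen with earlier results of these data known. Picking genes out of the family with those results in view also decided which 7 remained. The adjusted p-values and shares of the 7 do not allow for that choice. In AtGATA2ox against Col, 1 of the 7 rose, 1 fell and 5 were not called at a limma adjusted p under 0.05 over all probe sets. That is 14.3% in each direction, where 9.72% of all probe sets were higher and 18.8% lower. ATG8H and the gene listed as APG8H, an older symbol of ATG8I, encode the type of ATG8 protein that ends at the conjugated glycine and needs no trimming by ATG4. ATG8H read 704.1, 652.8 and 680.3 in Col, 426.8, 443.2 and 353.3 in bri1-116, and 1187.3, 2835.6 and 1195.4 in AtGATA2ox. No group overlapped another, and AtGATA2ox replicate 2 stood well above the other 8 arrays.

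ATG8H rose 2.34-fold in AtGATA2ox against Col (1.23 ± 0.27, adjusted p = 0.0041) and was 3.91-fold higher than in bri1-116 (1.97 ± 0.27, adjusted p = 0.00015). Without AtGATA2ox replicate 2 the difference from Col was 0.81 (adjusted p = 0.0022). With scaling to the hybridisation controls it was 0.18 and not called (adjusted p = 0.7), while the difference from bri1-116 was 1.39 (adjusted p = 0.0066). In bri1-116 against Col it was at -0.74 ± 0.27 and not called (adjusted p = 0.092), but a fit of those 2 groups alone, free of the scatter in AtGATA2ox, gave an adjusted p of 0.0025. Its order of genotypes, AtGATA2ox above Col above bri1-116, was that of the ATG8E and APG8A means.

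ATG8G, in the same branch of the family as ATG8E, went the other way in AtGATA2ox. It read 555.2, 677.7 and 499.1 in Col, 516.8, 462.5 and 486.7 in bri1-116, and 173, 205.8 and 368.3 in AtGATA2ox. The AtGATA2ox arrays lay below all others, and those of bri1-116 and Col overlapped. It fell 2.42-fold against Col (-1.28 ± 0.26, adjusted p = 0.0021), a call kept under all 4 scalings (-0.93 to -2.33). Against bri1-116 it was 2.07-fold lower (-1.05 ± 0.26, adjusted p = 0.0078), but not called with quantile normalisation (-0.76, adjusted p = 0.059). The 2 ATG8 genes that were called in AtGATA2ox thus moved in opposite directions on the deposited scale, and on the same arrays the log2 ratio of ATG8H over ATG8G, a pair picked after their values were seen, was 2.53, 3.53 and 1.45 above the Col mean.

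The other 5 genes were closer to Col. APG8H (ATG8I) was at 3826.2 to 5119.3 in AtGATA2ox and 4377.7 to 5022.4 in bri1-116 against 5502.2 to 6520.3 in Col, with no overlap with Col in either case. Its log2 differences of -0.42 ± 0.15 (adjusted p = 0.055) and -0.37 ± 0.15 (adjusted p = 0.13) were not called, although quantile normalisation gave calls in both (-0.71, adjusted p = 0.0032, and -0.53, adjusted p = 0.027). The 4 further genes ATG8B, ATG8C, ATG8D and ATG8F lay between -0.03 and 0.21 in AtGATA2ox and between -0.01 and 0.27 in bri1-116, with SEs of 0.15 to 0.19. These 4 stood at -0.84 to -1.08 in AtGATA2ox with scaling to the hybridisation controls, and were then called as lower. None of the 7 was called in bri1-116 by limma, where 7.09% of all probe sets were higher and 8.00% lower. At an unadjusted p under 0.05, 2 of the 7 were lower, a threshold not counted over all probe sets. The limma fit of those 2 groups alone called ATG8H (adjusted p = 0.0025) and APG8H (adjusted p = 0.042) as lower, among 5182 calls over all probe sets. The median log2 difference of the 7 was 0.05 in AtGATA2ox and -0.01 in bri1-116, against -0.17 and -0.02 over all probe sets.

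**Figure D3:**
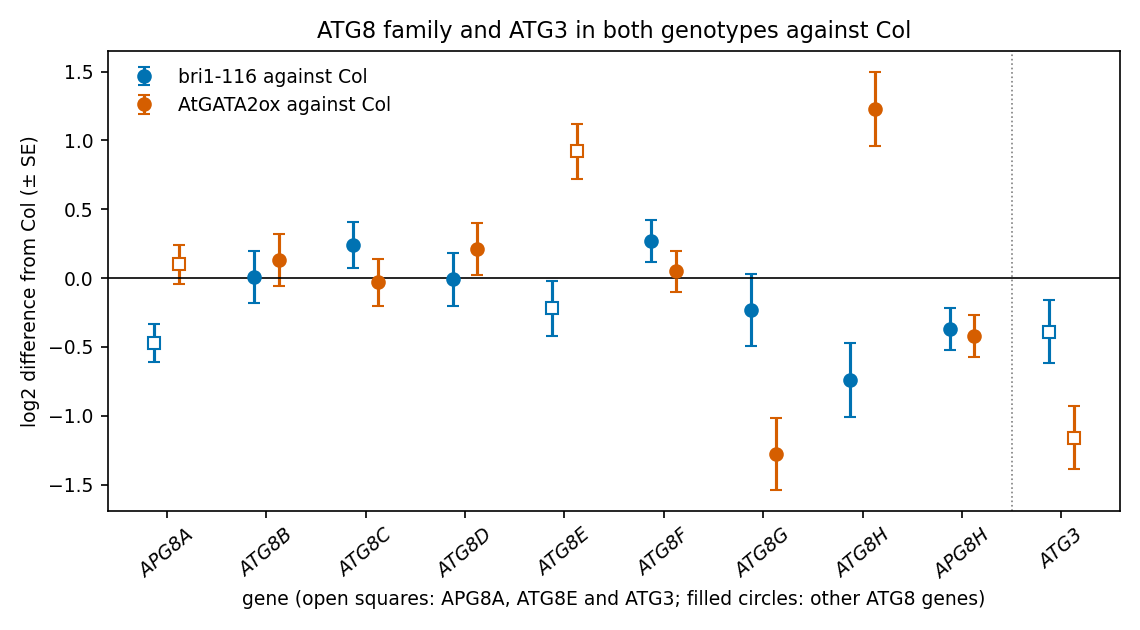
Log2 difference from Col (± SE, n = 3 arrays per genotype) of the 9 ATG8 genes and ATG3 in bri1-116 and AtGATA2ox, on the deposited scale. ATG8H (1.23) and ATG8E (0.92) are highest and ATG8G (-1.28) and ATG3 (-1.16) lowest in AtGATA2ox, while every gene in bri1-116 lies between -0.74 and 0.27; with scaling to the hybridisation controls ATG8H of AtGATA2ox goes to 0.18 and ATG8E to -0.13.

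Outside the ATG8 family 11 further list members had a named probe set. ATG101 (AT5G66930), a subunit of the ATG1 kinase complex that starts autophagy, read 696.5, 934.6 and 830.2 in Col, 385, 412.8 and 386.1 in bri1-116, and 370.1, 521.2 and 360.4 in AtGATA2ox. Both altered genotypes lay wholly below Col and overlapped each other. It fell 2.06-fold in bri1-116 (-1.04 ± 0.19, adjusted p = 0.002) and 1.98-fold in AtGATA2ox (-0.98 ± 0.19, adjusted p = 0.0017), and both calls held under all 4 scalings. The direct comparison gave 0.06 ± 0.19 (adjusted p = 0.86). The 2 falls share the Col arrays.

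**Figure D4:**
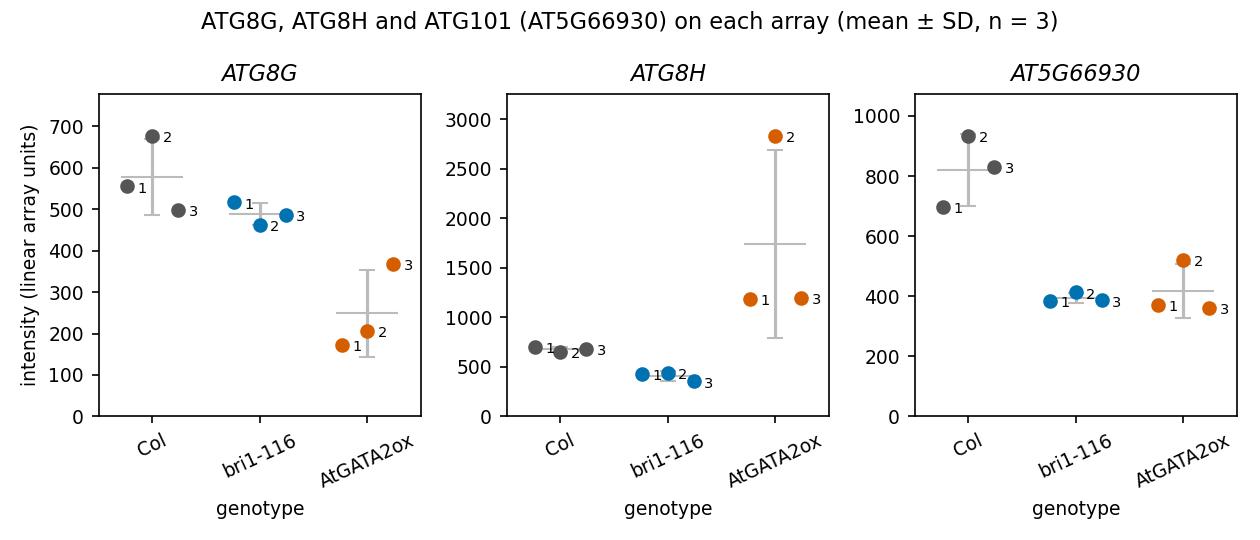
Intensity (linear array units, from 0) of ATG8G, ATG8H and ATG101 (AT5G66930) on each of the 9 arrays by genotype, with replicate numbers beside the points and the mean ± SD (n = 3) in grey. ATG8G is lowest in AtGATA2ox (173 to 368.3), ATG8H is highest there on the deposited scale (1187.3 to 2835.6; its log2 difference from Col is 0.18 with the hybridisation controls), and ATG101 is below Col in both altered genotypes.

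The other 10 loci carry no autophagy symbol in the tables used here and are given by locus. In AtGATA2ox, AT3G18770 was lower at 5 to 19.6 against 56.5 to 91.9 in Col (-2.81 ± 0.62, adjusted p = 0.004), levels at or near those of the Bacillus controls, so its fold change is not exact. It was also lower than in bri1-116 (-2.91 ± 0.62, adjusted p = 0.0033). AT2G37840 was lower at 28 to 163.6 against 223.1 to 297.2 (-1.72 ± 0.5, adjusted p = 0.019). That call was lost with quantile normalisation (adjusted p = 0.086) and with centring (adjusted p = 0.075), and without Col replicate 1 (0.056) or Col replicate 2 (0.072). Without AtGATA2ox replicate 1 its difference was -0.99, still called. Its second probe set was at -1.36 and not called (adjusted p = 0.09). AT5G06830 was lower too, at 52.5 to 58.8 against 104.7 to 126.1 (-1.07 ± 0.38, adjusted p = 0.049), a call lost when any 1 of the 9 arrays was left out (adjusted p = 0.055 to 0.15) and with quantile normalisation or centring. Of its 3 AtGATA2ox arrays 2 were at or below the highest Bacillus control of the array, so its fold change is not exact either.

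The 7 that were not called in AtGATA2ox were AT3G61960 (-0.75), AT4G34660 (-0.56), AT3G59950 (-0.55), AT1G77890 (-0.48), AT5G50230 (-0.39), AT1G49180 (-0.97) and AT3G53930 (-0.18). All 7 values were below 0 on the deposited scale, with adjusted p from 0.076 to 0.74. The median over all probe sets was also below 0 (-0.17), and the share of all probe sets below 0 was not counted. AT3G53930 turned to 0.16 with quantile normalisation and with centring, and the second, dimmer probe set of AT1G77890 was at 0.45 (adjusted p = 0.64). In bri1-116, where 7.09% of all probe sets were higher and 8.00% lower, the 10 loci were at -0.64 to 0.63, and none was called.

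Counted together, 1 of the 18 other autophagy loci rose and 5 fell in AtGATA2ox against Col, 5.6% and 27.8%, where 9.72% of all probe sets were called as higher and 18.8% as lower. Their median was -0.52, against -0.17 over all probe sets. In bri1-116 against Col 0 rose and 1 fell (5.6%) by limma, with 7.09% higher and 8.00% lower over all probe sets. At an unadjusted p under 0.05 the counts were 0 and 3, a threshold not counted over all probe sets. In AtGATA2ox against bri1-116, 1 was higher (5.6%) and 2 lower (11.1%), where 9.55% and 17.2% of all probe sets were. A single locus of the 18 makes 5.6%, and no difference between the list and the background was tested. With scaling to the hybridisation controls the counts in AtGATA2ox against Col became 0 higher and 17 lower, beside 421 higher and 12046 lower over all probe sets.

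**Figure D5:**
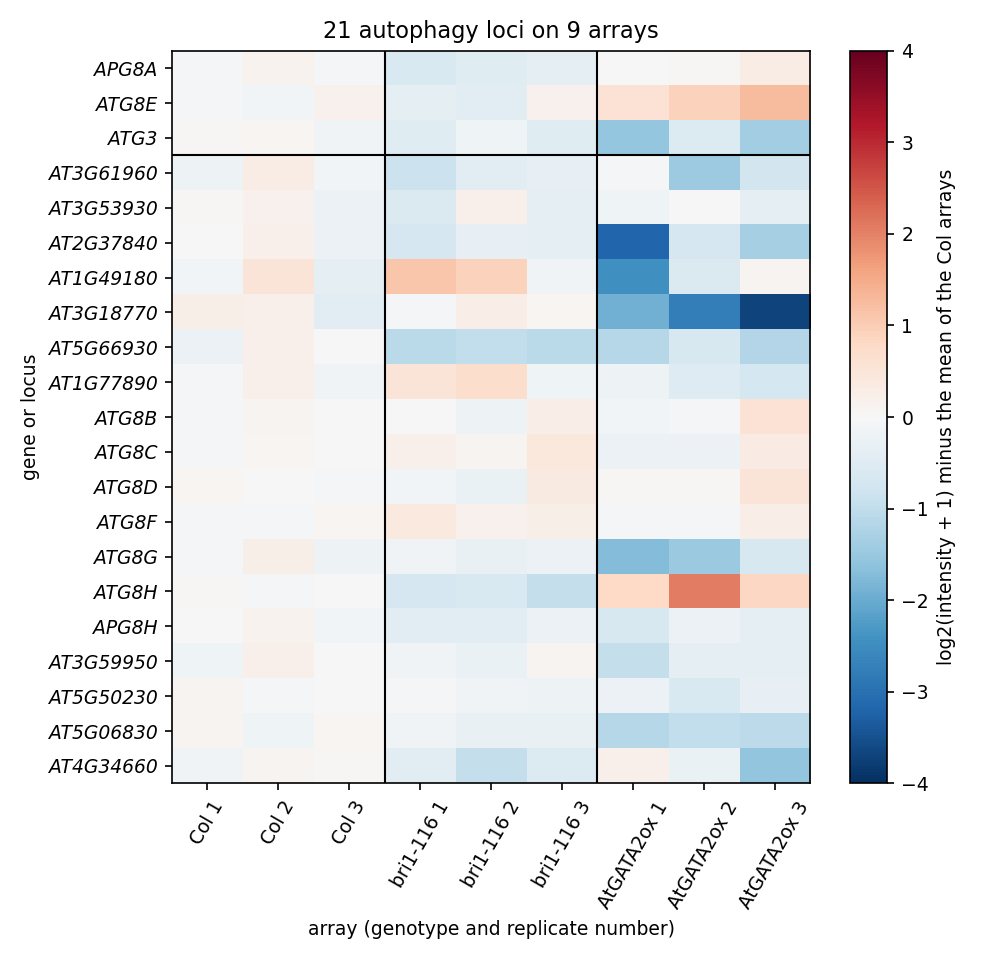
Log2(intensity + 1) minus the mean of the 3 Col arrays for 21 autophagy loci (rows, with APG8A, ATG8E and ATG3 above the line) on the 9 arrays (columns, genotype and replicate number); red is above and blue below the Col mean on the deposited scale. ATG8E and ATG8H are red and ATG3, ATG8G, ATG101 (AT5G66930) and AT3G18770 blue on the 3 AtGATA2ox arrays, and with scaling to the hybridisation controls ATG8E turns to -0.13.

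Other lists, also chosen with earlier results of these data known, covered steps around the ATG genes. RAPTOR1, a subunit of the TOR kinase complex that restrains autophagy when nutrients are plentiful, fell from 743.3 to 846.7 in Col to 365.8 to 460.2 in AtGATA2ox (-0.99 ± 0.16, adjusted p = 0.00048). It was at 517.5 to 561 in bri1-116 (-0.56 ± 0.16, adjusted p = 0.031), a call lost with centring on the median (-0.43, adjusted p = 0.15) or without any 1 of the 6 arrays compared (adjusted p = 0.062 to 0.13). RAPTOR2, the second gene of that subunit, was not called in any comparison. RAPTOR1 and ATG3 shared the order Col, bri1-116, AtGATA2ox. The mean ratios of the first actin pair rose in that order too (1.91, 3.82 and 4.8). How many probe sets had that order was not counted, and a link between the 2 genes was not tested.

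Vacuolar proteases act where autophagic bodies are degraded. Of 5 measured, 4 fell in AtGATA2ox against Col, where 18.8% of all probe sets were lower, and 1 was not called. GAMMA-VPE, a vacuolar processing enzyme of vegetative tissue, fell from 5516.6 to 5915.1 in Col to 743.7 to 1473.4 (4.93-fold, -2.3 ± 0.22, adjusted p = 6.9e-06). It was at 3050.7 to 3855 in bri1-116 (-0.7 ± 0.22, adjusted p = 0.048), a call lost with centring on the median (adjusted p = 0.2) and without any 1 of the 6 arrays compared (0.082 to 0.18). AT1G02305 (-1.38 ± 0.14, adjusted p = 9.5e-06), AT4G01610 (-1.3 ± 0.23, adjusted p = 8e-04) and BETA-VPE (-0.91 ± 0.32, adjusted p = 0.047) fell as well. The call of BETA-VPE was lost with quantile normalisation (-0.5) and with centring (-0.57), and in 7 of the 9 fits that left out 1 array (adjusted p up to 0.17). ALPHA-VPE was at -1.08 ± 0.56 and not called, with all 3 AtGATA2ox arrays at or below the Bacillus controls. Relative to bri1-116, GAMMA-VPE (-1.6), AT4G01610 (-1.1) and AT1G02305 (-1.21) were lower in AtGATA2ox, where 17.2% of all probe sets were. The median of the 5 was -1.3 in AtGATA2ox and -0.2 in bri1-116, against -0.17 and -0.02 over all probe sets.

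Of 11 listed genes known from dark and sugar starvation, 4 were measured. That list was chosen with earlier results of these data known, so its counts are a description. Of the 4, 3 rose in AtGATA2ox against Col, where 9.72% of all probe sets were higher. In bri1-116, where 7.09% were higher and 8.00% lower, limma called 0 of the 4 (0 at an unadjusted p under 0.05). All 3 belong to the breakdown of leucine or the passing of its electrons to the respiratory chain. ETFQO, the oxidoreductase that hands those electrons to ubiquinone, rose 2.24-fold (1.16 ± 0.19, adjusted p = 0.00048), and MCCB, a subunit of methylcrotonyl-CoA carboxylase, 2.21-fold (1.14 ± 0.24, adjusted p = 0.0026). IVD, isovaleryl-CoA dehydrogenase, was 1.51-fold higher (0.6 ± 0.2, adjusted p = 0.035), a call lost in 7 of 9 fits that left out 1 array, with 0.35 without AtGATA2ox replicate 2. MCCA, the other carboxylase subunit, was at 0.35 ± 0.32 and not called. Scaled to the hybridisation controls, none of the 3 was called as higher (0.11 for ETFQO, 0.09 for MCCB and -0.45 for IVD), as was seen for ATG8H. Against bri1-116, where 9.55% of all probe sets were higher in AtGATA2ox, the same 3 were also higher (0.74 to 1.31). Of these, the calls of IVD and MCCB were lost when arrays were scaled to the hybridisation controls (at 0.17 with an adjusted p of 0.66, and at 0.41 with one of 0.28) and with eBayes without a trend (adjusted p = 0.074 and 0.057), and that of IVD also without bri1-116 replicate 1 (0.055).

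The loci whose level followed each gene most closely over the 9 arrays were found by Pearson correlation of log2 values among 3521 loci of sufficient level and spread. The 9 points fall into 3 genotypes, so high values mainly show the same order of genotypes, and no p is given. For ATG8E they were AT4G17650, AT5G20050, AT5G03030, AT1G72060 and AT4G28300, with r from 0.961 to 0.982. AT4G17650 was close in size too, at 0.87 in AtGATA2ox and -0.09 in bri1-116. For APG8A they were AT5G11650, AT5G19240, AT5G12880, AT3G14067 and ACA.l (AT1G13210), with r from 0.956 to 0.98, and log2 differences of -1.08 to -2.18 between bri1-116 and Col, where the minimum spread set for these loci favours large differences. For ATG3 they were AT4G21450, AT1G33970, AT4G17900, ATERDJ2A and UBP25, with r from 0.985 to 0.995. UBP25, a ubiquitin-specific protease gene, was nearest to ATG3 in size, at -1.34 in AtGATA2ox and -0.3 in bri1-116.

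Ranked by Spearman correlation instead, 1 of the 5 loci was shared for APG8A, 1 for ATG8E and 0 for ATG3, so the choice of the nearest loci depends on the measure. Of the autophagy loci, AT2G37840 ordered the 9 arrays exactly as ATG3 did (rho = 1), as did 5 other loci. Within the group of 3, r over the 9 arrays was 0.74 between ATG8E and APG8A, -0.69 between ATG8E and ATG3, and -0.29 between APG8A and ATG3. Of the other ATG8 genes, ATG8H (0.79) and ATG8D (0.72) followed ATG8E most closely, and APG8H (0.78) and ATG8G (0.74) followed ATG3.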

How the data were processed

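The authors deposited a linear intensity for each probe set on 9 single-colour Affymetrix arrays. MAS5 and GCRMA are named per the submitters' processing notes, without versions or the step each was used for. Once its lowest and highest 2% of values were set aside, every deposited array had a mean of 500 to 500.1. The genome build is not given in the sources used here, so no coordinates are printed. Of 22810 probe sets, 64 controls were left out and 22746 tested. Probe sets were named through the platform annotation where it gave 1 gene (13513), and 13436 of these had their locus in RefSeq's genes of TAIR10.1. The brightest probe set stood for a locus. The ATG8 genes are paralogs, and cross-hybridisation between them was not tested.

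Differences came from 1 fit with limma 3.58.1 under R 4.3.3 (lmFit, then eBayes with a trend) of log2(intensity + 1) over all 9 arrays, with Benjamini-Hochberg adjustment over all 22746 probe sets and calls under 0.05. With 3 arrays in a genotype, their number limits the precision. The fit was tested on simulated data. The 3 genes, the lists and the alternatives were chosen with earlier results of these data known. Named were the 3 genes, all measured autophagy loci, up to 4 loci a comparison from other lists, and the 5 loci most correlated with each gene, with a mean of at least 124.5, the median of all values, in some genotype and an SD of at least 0.5. ALPHA-VPE and the within-array ratios were added after the values were seen. Alternatives were other scalings, a pseudocount of 16, omission of the dimmest 40% of probe sets, eBayes without a trend, array weights, only the 2 groups compared, a replicate block, every probe set of a locus, and each array left out in turn.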

Additional observations from a re-analysis of the deposited data

How the results depend on the processing

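With scaling to the hybridisation controls, AtGATA2ox against Col was at -0.95 for APG8A and -0.13 for ATG8E, both turned in sign, and at -2.21 for ATG3. With that scaling bri1-116 against Col was at -0.95, -0.7 and -0.86, and AtGATA2ox against bri1-116 at 0, 0.56 and -1.35, in the same order of genes. Quantile normalisation turned APG8A in AtGATA2ox against Col to -0.13, and gave 0.41 against bri1-116. Centring on the median gave APG8A 0.44 in AtGATA2ox and -0.34 in bri1-116 against Col, and 0.78 between the altered genotypes, and ATG8E 1.26 in AtGATA2ox against Col. With each array left out in turn, AtGATA2ox against Col ranged from 0.01 to 0.16 for APG8A, 0.75 to 1.09 for ATG8E and -1.47 to -0.97 for ATG3, and bri1-116 against Col from -0.53 to -0.41, -0.42 to -0.12 and -0.49 to -0.33. AtGATA2ox against bri1-116 ranged from 0.48 to 0.64, 0.97 to 1.33 and -1.08 to -0.58. The other alternatives moved these 9 differences by less than the spread between arrays.

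Of the 18 other autophagy loci, 17 were called in AtGATA2ox against Col, 5 in bri1-116 against Col and 13 in AtGATA2ox against bri1-116 with scaling to the hybridisation controls, where the deposited scale gave 6, 1 and 3. In bri1-116 the count was 2 with quantile normalisation, 3 with array weights and 3 with only the 2 groups compared. With each array left out in turn the counts were 4 to 7, 1 to 2 and 3 to 5 in the same order of comparisons. Without AtGATA2ox replicate 2, 2 loci were called in bri1-116, and without AtGATA2ox replicate 3, 5 were called in AtGATA2ox against bri1-116. Scaled to the hybridisation controls, ATG8B (-0.92), ATG8D (-0.84), ATG8F (-1), IVD (-0.45) and PEX4 (-0.69) turned below 0 in AtGATA2ox against Col, and PEX4 (-0.47) against bri1-116, each called under at least 1 of the settings. MCCA (-0.7), EXPA7 (-0.65) and SPCH (-0.63) turned too in AtGATA2ox against Col, without a call. Over all probe sets the calls in AtGATA2ox against Col were 6486, and 12467 with that scaling. In bri1-116 against Col they were 3431, and 2104 with eBayes without a trend, 5158 with array weights, 5182 with only the 2 groups compared and 2152 without Col replicate 2. With an array left out they ranged from 4794 to 6641 in AtGATA2ox against Col, 2152 to 4115 in bri1-116 against Col and 4582 to 6316 in AtGATA2ox against bri1-116.

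Deviations of same-numbered arrays had r of -0.018 to 0.02 over 9 pairs, and a pairing in single genes was not tested. The replicate block gave 6460, 3439 and 6036 calls and left the counts of other autophagy loci at 5, 1 and 3. AT5G06830 was the locus that lost its call with it (adjusted p = 0.079). Of 1821 values of single genes under an alternative, 1612 kept their sign and side of the threshold, 69 lost a call and 56 gained one. The other 84 changed sign, 78 of them not called under either setting, and 23 of the 84 under the hybridisation controls. The cause of these changes was not tested. The promoter window was not run, as no sequence was analysed here. At least 1 array at or below the highest Bacillus control limits AT3G18770, AT5G06830, AT2G37840, AT1G49180, ALPHA-VPE, RAPTOR2, EXPA7, EXPA18 and SPCH.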
